A study of Homo sapiens with 6 samples.

Results

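CACNA1H was the protein-coding gene with the largest number of listed differentially methylated regions in a comparison of HepG2 cells overexpressing the de novo DNA methyltransferase DNMT3A with control HepG2 cells. It was chosen by the number of its listed regions, so the calls and levels given here describe it and support no test. Its members are all rows of the 3 deposited lists that overlap chromosome 16: 1152000-1223000 on hg38, a window that holds the gene and about 1 kb on each side. There were 39 such rows of 4344 listed in all, 12 of 1483 in pair 1, 13 of 1433 in pair 2 and 14 of 1428 in pair 3.

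The study measured DNA methylation by reduced representation bisulfite sequencing (RRBS), which reads CpG-rich fragments cut by the enzyme MspI. HepG2 is an established line of human liver cancer cells. One group carried a DNMT3A-overexpressing lentivirus and the other a control lentivirus, with 3 libraries each, and all libraries came from the same parental line. Libraries of equal number were compared with each other, which gives the lists of pairs 1, 2 and 3. The labels do not say whether the libraries of a group were separate cultures, nor was the level of DNMT3A itself measured in these files.

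CACNA1H encodes the pore-forming subunit of the T-type voltage-gated calcium channel Cav3.2, which opens at small depolarisations of the membrane. Such channels are best known in neurons, heart, vessels and adrenal cells, where they shape pacemaking, firing and hormone release. DNMT3A adds methyl groups to cytosines of CpG sites that had none. Methylation of a CpG-rich promoter usually accompanies silencing of its gene, whereas methylation within the body of a gene is common in transcribed genes. Expression was not measured in these files.

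In the RefSeq gene table the gene (gene ID 8912) spans chromosome 16: 1153106-1221768, a length of 68663 bp. The gene is known to be transcribed towards higher coordinates, so distances from its lower-coordinate end run from promoter to 3′ end. Strand, exons and introns are not in that table, so positions are given only as distances. Of the 39 rows, 37 overlapped the gene and the other 2 lay 325 and 976 bp past its end, inside TPSG1, a tryptase gene that overlaps the end of CACNA1H. At the edges of the window, the row just inside was chromosome 16: 1222744-1222804 in pair 2, with a level of 0.754 in the overexpressing and 0.358 in the control library. The nearest row outside it was chromosome 16: 1149000-1149053 in pair 1, 4053 bp before the gene, with levels of 0.439 and 0.257 in the overexpressing and control libraries.

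The only member sequence that the RefSeq sequence tables hold lies inside CACNA1H, at the start of LOC124903622, a noncoding RNA gene on the minus strand at chromosome 16: 1156972-1158610. Its promoter window, chr16:1158561-1158860 on GRCh38.p14, is shown because rows of pairs 1 and 3 reach into it. It is printed 5′ to 3′ on the minus strand, with the 106 bases inside the row of pair 1 (chromosome 16: 1158524-1158666) in capitals.
LOC124903622 window: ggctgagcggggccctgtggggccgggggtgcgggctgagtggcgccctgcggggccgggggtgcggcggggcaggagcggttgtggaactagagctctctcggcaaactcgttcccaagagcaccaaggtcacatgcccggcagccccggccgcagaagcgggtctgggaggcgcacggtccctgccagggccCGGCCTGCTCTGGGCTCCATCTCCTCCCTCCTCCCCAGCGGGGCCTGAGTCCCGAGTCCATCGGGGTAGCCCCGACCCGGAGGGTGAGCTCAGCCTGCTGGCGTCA
The same 106 bases follow alone, with each CpG in capitals. They are part of the pair 1 row, whose level averages 22 CpG cytosines over 143 bp, also outside these bases.
Listed stretch, pair 1: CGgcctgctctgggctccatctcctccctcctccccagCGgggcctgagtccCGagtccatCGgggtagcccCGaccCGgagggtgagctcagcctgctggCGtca
The row of pair 3 (chromosome 16: 1158440-1158628) covered the last 68 of these bases. The stretch holds 7 CpG dinucleotides, 6 of them in the bases shared with pair 3. Over the whole row of pair 1 the level was 0.174 in overexpressing library 1, against 0.0470 in control library 1. The whole row of pair 3, with 31 CpG cytosines over 189 bp, stood at 0.213 in overexpressing library 3, against 0.0803 in control library 3. The window holds 24 CpG dinucleotides, against a median of 14 over 35116 promoter windows of 300 bases, of which 33.9% hold at least 24. It holds 6 copies of the MspI motif CCGG, which reads the same on both strands. At least 1 copy was found in 63.1% of those windows, and at least 6 in 9.99%.

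All 39 rows were higher in the overexpressing library, and none was lower. Over all listed regions 82.1%, 81.7% and 81.1% were higher in pairs 1, 2 and 3. Of 19879 protein-coding genes, 3.63%, 3.58% and 3.5% had at least 1 higher region within 1 kb in pairs 1, 2 and 3, and 1.13% had one in each of the 3 pairs. Among the 1769 genes with any listed region the median was 1 row over the 3 lists, and 1139 genes had exactly 1. The largest count after the 39 of CACNA1H was 27. Per 10 kb of gene CACNA1H ranked 55, behind 54 genes with a median length of 2.50 kb. Those genes had a median of 2 rows, and the largest count among them was 11. The rate of CACNA1H divides all 39 rows, also those past its end, by the length of the gene alone.

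The size of the gain was similar in the 3 pairs. Weighted by CpG cytosines, the mean level over the listed rows was 0.573, 0.503 and 0.520 in overexpressing libraries 1, 2 and 3, against 0.362, 0.256 and 0.284 in control libraries 1, 2 and 3. The differences within pairs were 0.211, 0.247 and 0.236, a mean of 0.231 ± 0.0184 (SD, n = 3 pairs). Each pair averages its own set of rows, so libraries of a group also differ in which sites they average. Single rows differed by 0.0834 to 0.571.

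The rows were spread along the gene but not evenly. The first began 2624 bp inside the lower-coordinate end, so no row touched the start of the gene or the sequence just before it. Within the first 10 kb lay 11 rows, from 20 to 30 kb 13 rows and from 30 to 40 kb 7 rows. From 10 to 20 kb there was 1 row, from 40 to 50 kb 3, from 50 to 60 kb 1 and from 60 to 70 kb 3. A stretch without a row was either not covered or not called, and the lists do not tell these apart.

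**Figure D1:**
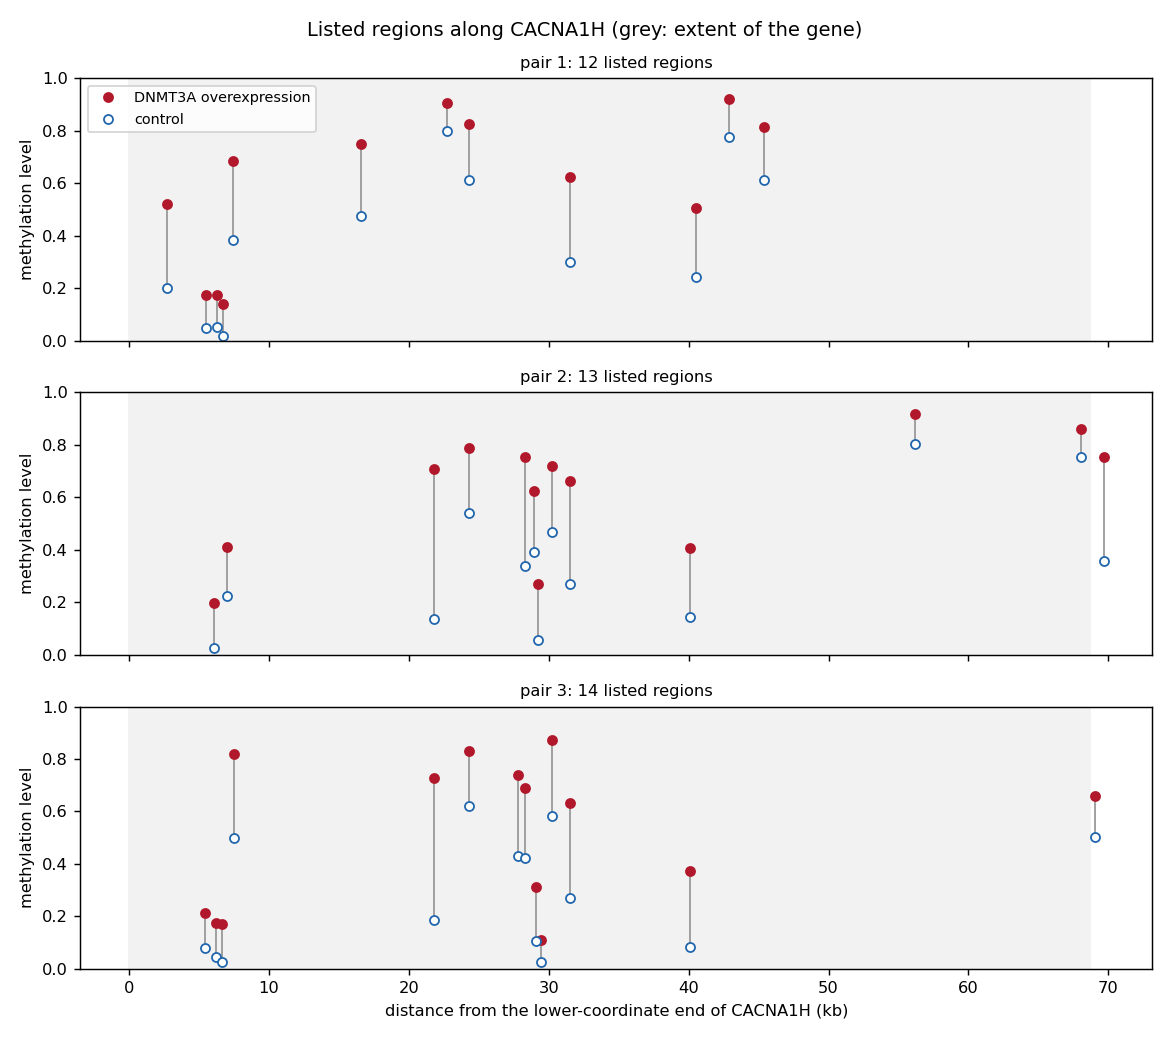
Methylation level (vertical axis, fraction) of each listed region against the distance of its midpoint from the lower-coordinate end of CACNA1H (kb), for pairs 1 to 3. Filled points are overexpressing libraries, open points their controls, and a line joins the levels of 1 region; each of the 39 filled points lies above its open point.

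Merging rows that overlap by at least 1 bp gave 22 distinct regions. Of these, 5 were listed in all 3 pairs, 5 in 2 pairs and 12 in 1 pair. With a 50% reciprocal overlap in place of 1 bp, 3 regions were listed in all 3 pairs. With the 1 bp merge, regions in all 3 pairs were 22.7% of the distinct regions of CACNA1H, and 8.21% of the 3313 distinct regions of the whole series. CACNA1H was chosen by its rows over the 3 lists, and a region in all 3 pairs adds rows from each list. This contrast is therefore not independent of the choice. At all 10 regions listed in 2 or 3 pairs, every overexpressing level was above every control level, with the rows of a pair averaged by CpG cytosines. The same held at 85.9% of the 723 distinct regions of the whole series listed in 2 or 3 pairs. Single rows at chromosome 16: 1159673-1160703 were not separated. There, rows at 0.139 and 0.169 in overexpressing libraries 1 and 3 lay below the row at 0.222 in control library 2. Each region was listed for a difference, so the separation is part of how the regions were chosen. The 85.9% is over regions of either direction, and a region lower in the overexpressing library cannot show this separation. The share among gains alone was not computed.

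A stretch 5.33 to 6.86 kb into the gene held 7 rows that were nearly unmethylated in the controls. Their levels were 0.139 to 0.213 in overexpressing libraries, against 0.0166 to 0.0803 in controls. The region at chromosome 16: 1159039-1159481 was listed in all 3 pairs. Its level was 0.176, 0.196 and 0.176 in overexpressing libraries 1, 2 and 3, against 0.0507, 0.0272 and 0.0460 in control libraries 1, 2 and 3. The groups did not overlap, and the mean difference was 0.141 ± 0.0242 (SD, n = 3). The rows of pairs 1, 2 and 3 covered different parts of this span, with 28, 38 and 42 CpG cytosines. The SD therefore also holds the difference in sites. Expressed as a share of the unmethylated fraction of the control, the gain of these 7 rows was 12.4% to 17.4%.

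Directly beside this low stretch the levels were much higher. In pair 1 the row at chromosome 16: 1159711-1159965 stood at 0.139 in the overexpressing and 0.0166 in the control library. The next row of pair 1, at chromosome 16: 1160389-1160657, stood at 0.686 and 0.384 in the overexpressing and control libraries. Pair 3 had the same arrangement. At chromosome 16: 1159673-1159889 it stood at 0.169 in the overexpressing and 0.0268 in the control library, and at chromosome 16: 1160485-1160703 at 0.819 in the overexpressing and 0.4999 in the control library. Pair 2 listed 1 row of 923 bp across both parts, with an intermediate level of 0.411 in the overexpressing and 0.222 in the control library. The 1 bp merge therefore counts both parts as 1 region, chromosome 16: 1159673-1160703, listed in all 3 pairs.

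A pair of regions farther in were also listed in all 3 pairs with little spread between libraries. At chromosome 16: 1177335-1177526, 24.2 kb into the gene, the level was 0.826, 0.789 and 0.829 in overexpressing libraries 1, 2 and 3, against 0.614, 0.542 and 0.621 in control libraries 1, 2 and 3. Every overexpressing library lay above every control, with a mean difference of 0.222 ± 0.0218 (SD, n = 3). The rows there began at the same base but held 32, 30 and 28 CpG cytosines in pairs 1, 2 and 3. At chromosome 16: 1184451-1184745, 31.3 kb in, the level was 0.623, 0.661 and 0.631 in overexpressing libraries 1, 2 and 3, against 0.298, 0.271 and 0.268 in control libraries 1, 2 and 3. This region had identical boundaries and 21 CpG cytosines in every list, so all 6 levels refer to the same stretch. Its mean difference was 0.359 ± 0.0325 (SD, n = 3), and the SD between control libraries was 0.0166.

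The last region listed in all pairs varied more between libraries. At chromosome 16: 1193073-1194172, 39.97 kb in, the level was 0.505, 0.409 and 0.372 in overexpressing libraries 1, 2 and 3, against 0.241, 0.144 and 0.0842 in control libraries 1, 2 and 3. Pair 1 was highest in both groups, and its row spanned 1017 bp with 21 CpG cytosines, against 266 and 267 bp with 25 and 26 in pairs 2 and 3. The differences within pairs stayed close, at 0.264, 0.265 and 0.288.

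**Figure D2:**
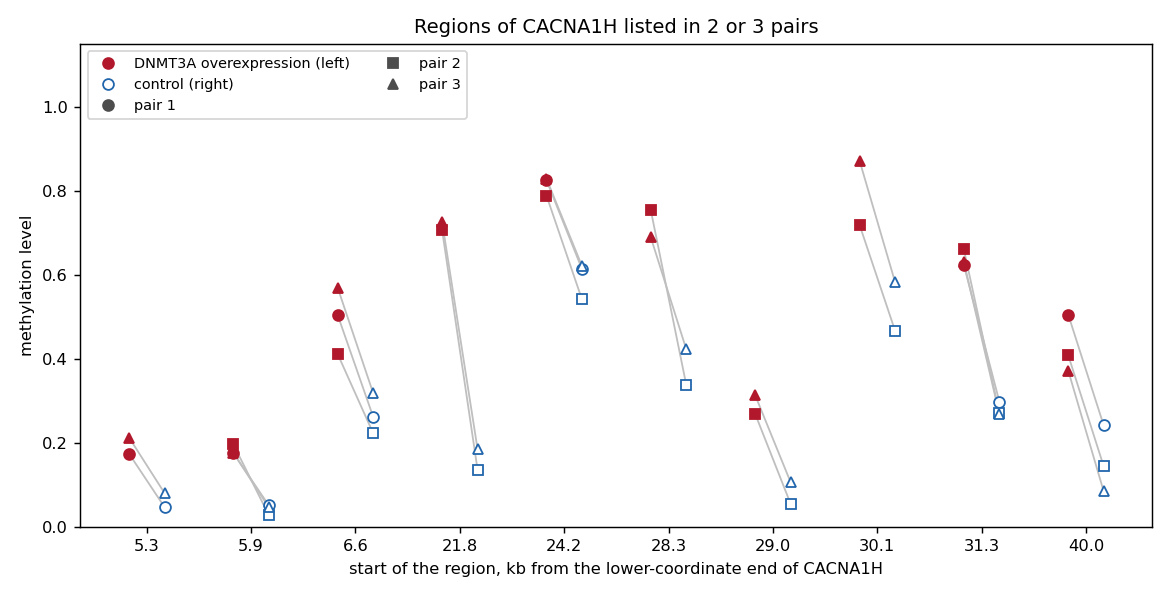
Methylation level (fraction) at the 10 regions of CACNA1H listed in 2 or 3 pairs, ordered by their start in kb from the lower-coordinate end of the gene. Rows of a pair in 1 region are averaged by CpG cytosines. Filled red points on the left are overexpressing libraries and open blue points on the right controls, the marker gives the pair, and lines join libraries of 1 pair; every region steps down from left to right.

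The largest differences of the gene were at chromosome 16: 1174894-1174973, 21.8 kb in, a region of 5 CpG cytosines with identical boundaries in pairs 2 and 3. Its level was 0.707 and 0.726 in overexpressing libraries 2 and 3, against 0.136 and 0.185 in control libraries 2 and 3. Pair 1 did not list it. A few CpG cytosines carry this value, and the reads behind it are not known.

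A cluster of 6 distinct regions from 27.7 to 30.3 kb was listed in pairs 2 and 3 alone. It combined stretches of very different levels within a short distance. At chromosome 16: 1181369-1181444 the level was 0.754 and 0.689 in overexpressing libraries 2 and 3, against 0.338 and 0.423 in control libraries 2 and 3. Less than 1 kb on, at chromosome 16: 1182138-1182500, it was 0.269 in overexpressing and 0.0545 in control library 2, over 41 CpG cytosines. Pair 3 listed only chromosome 16: 1182138-1182252 there, with 12 CpG cytosines, at 0.313 in overexpressing and 0.106 in control library 3. At chromosome 16: 1183240-1183392 the level was 0.719 and 0.872 in overexpressing libraries 2 and 3, against 0.468 and 0.583 in control libraries 2 and 3. The other 3 regions of the cluster were listed once, and the lowest, chromosome 16: 1182537-1182593, stood at 0.110 in overexpressing and 0.0267 in control library 3.

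Pair 1 in turn listed 5 regions that no other pair listed. They lay 2.62, 16.5, 22.7, 42.8 and 45.3 kb into the gene. The first, at chromosome 16: 1155730-1155895, stood at 0.520 in overexpressing library 1 and 0.199 in control library 1, and its nearest neighbour in any list was 2544 bp away. Another, at chromosome 16: 1195911-1196004, stood at 0.922 and 0.778 in the overexpressing and control libraries. Pairs 2 and 3 shared 9 distinct regions with each other, whereas pair 1 shared 5 with pair 2 and 6 with pair 3. Library depth ran from 25764323 to 29924507 mapped reads, the highest being overexpressing library 1. Whether depth has a part in which regions were listed was not tested.

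Past 50 kb there were 4 rows, at varied levels. At chromosome 16: 1209234-1209286 pair 2 listed 0.916 in the overexpressing and 0.802 in the control library, the highest control level of the gene. At chromosome 16: 1221114-1221172, 68.0 kb in, pair 2 listed 0.860 and 0.752 in the overexpressing and control libraries. The row in TPSG1 at chromosome 16: 1222093-1222161 in pair 3 stood at 0.660 in the overexpressing and 0.501 in the control library. The other row in TPSG1, 976 bp past the gene in pair 2, had the lower control level of 0.358 given above.

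The members differed from one another mainly in their starting level, which ran from 0.0166 to 0.802 in the controls. The 10 rows with a control level under 0.1 had a median difference of 0.131, against 0.210 over the 983 other listed gains of that range. Of these 10 rows, 7 lay in the stretch 5.33 to 6.86 kb into the gene. The 10 rows from 0.1 to 0.3 had a median difference of 0.323, against 0.294 over 1430 other gains. The 12 rows from 0.3 to 0.6 had a median of 0.281, against 0.274 over 941 others. The 7 rows from 0.6 had a median of 0.144, against 0.209 over 153 others. A region listed in several pairs counts again for each, so the rows of a range are not all separate stretches.

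As a share of the unmethylated fraction in the control, the median gain was 13.999% under 0.1, 43.2% from 0.1 to 0.3, 53.1% from 0.3 to 0.6 and 54.8% from 0.6. Over the other listed gains these medians were 22.4%, 36.6%, 48.5% and 62.2%. The differences and these shares are computed from the control level itself, so part of their relation to it follows from the arithmetic. Rows with a control level of 0.6 or more made up 17.9% of the members, against 4.36% of the other listed gains. No test was made of these contrasts.

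**Figure D3:**
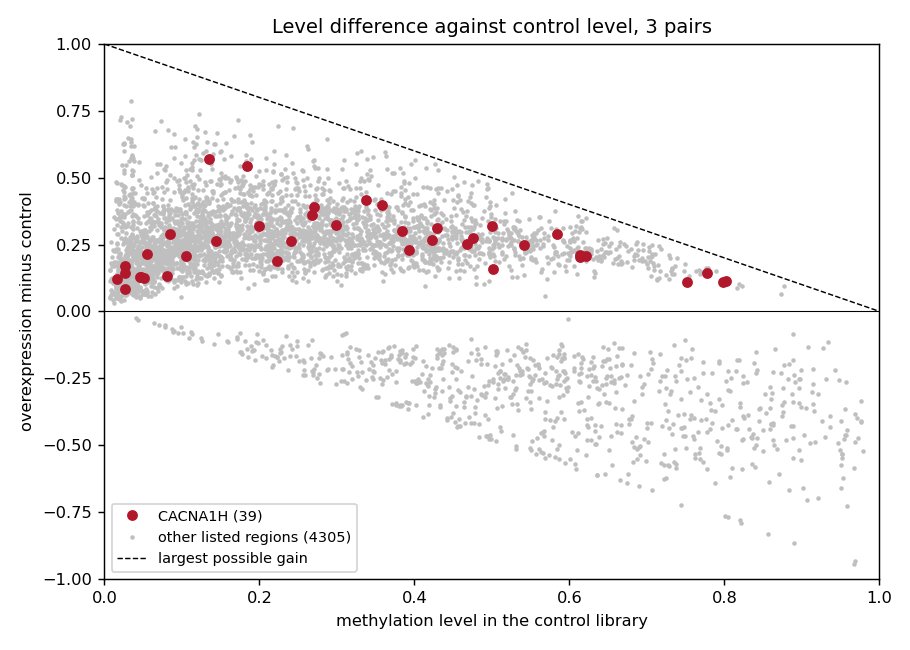
Level difference (overexpression minus control, vertical axis) against the control level (horizontal axis) of every listed region in the 3 pairs. Red points are the 39 rows of CACNA1H, grey points all 4305 others and the dashed line the largest possible gain; the red points lie above 0 over the whole range from 0.0166 to 0.802.

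The listed rows of CACNA1H were also longer than those of the other gains, with a region counted again in each pair that listed it. Their median length was 153 bp, against 103 bp, and their median number of CpG cytosines 21, against 12. The median density was 11.8 CpG cytosines per 100 bp, against 10.8. The greater length was seen only at lower control levels. Median length was 246 against 102 bp under 0.1, and 280.5 against 105 bp from 0.1 to 0.3. It was 103 against 102 bp from 0.3 to 0.6, and 94 against 95 bp from 0.6. The density was lower than that of the other gains from 0.1 to 0.3, at 6.87 against 10.1, and higher in the other ranges. Together the rows held 834 CpG cytosines, counting a site again in each list, and the distinct regions spanned 4982 bp of the gene and its flanks.

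The 5 protein-coding genes most like CACNA1H were GNG7, PTPRN2, BCL11B, GSE1 and BCOR. Likeness was the distance between the 6 counts of higher and lower rows in the 3 pairs. GNG7, a G protein gamma subunit gene, had 9, 8 and 10 higher rows in pairs 1, 2 and 3, and PTPRN2, a phosphatase-like protein gene of secretory vesicles, had 8, 11 and 7. BCL11B, a zinc finger transcription factor gene, had 9, 6 and 6. None of these 3 genes had a lower row. GSE1 had 5, 7 and 4 higher rows, and BCOR, a corepressor gene, had 6, 7 and 3, each with 1 lower row in pairs 1 and 2. All 5 genes were longer than CACNA1H (68.7 kb), from 103 kb for BCL11B to 1049 kb for PTPRN2.

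**Figure D4:**
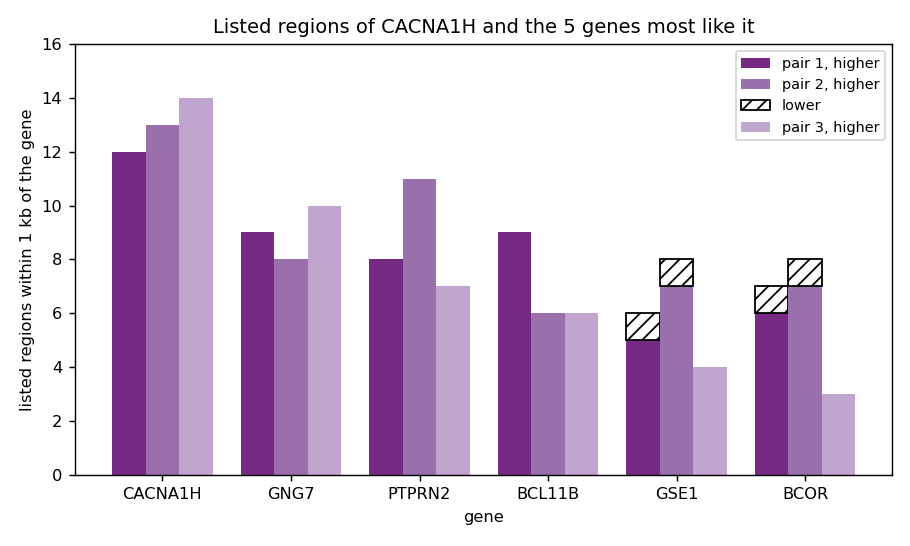
Number of listed regions within 1 kb of CACNA1H and of the 5 genes most like it (vertical axis), by pair. Filled bars count higher regions and hatched bars lower ones; CACNA1H has 12, 13 and 14 in pairs 1, 2 and 3, more than any of the 5 genes in each pair.

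Of 25 other voltage-gated calcium channel genes, 6 had a listed region within 1 kb, against 8.9% of all 19879 protein-coding genes. The other 19 had none, among them the other T-type genes CACNA1G and CACNA1I. A long gene offers more sequence in which a row can fall, and gene length was not accounted for in these shares. The 6 genes had 1 row each, also the median over all genes with a row, and each was listed in 1 pair. Of these rows 3 were higher and 3 lower, where 81.1% to 82.1% of all listed regions were higher. Among pore-forming subunits of L-type and N-type channels, CACNA1D stood at 0.445 in overexpressing and 0.124 in control library 2 (chromosome 3: 53495259-53495361), and CACNA1B at 0.202 and 0.0624 in the same libraries (chromosome 9: 138075676-138075754). CACNA1C went the other way, at 0.106 in overexpressing and 0.465 in control library 3 (chromosome 12: 2651733-2651795).

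Auxiliary subunits were as mixed. CACNG4 stood at 0.643 in overexpressing and 0.111 in control library 2 (chromosome 17: 66978581-66978648). CACNA2D2 stood at 0.239 in overexpressing and 0.751 in control library 1 (chromosome 3: 50365436-50365536), and CACNA2D4 at 0.191 and 0.368 in the same libraries (chromosome 12: 1907928-1908068).

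Before the gene, within 100 kb and outside the window, the lists held a few rows, each in 1 pair and higher in the overexpressing library. They lay in SSTR5-AS1, at its overlap with SSTR5, a somatostatin receptor gene, in LOC105371042, and 4053 bp from the gene. The row at SSTR5, chromosome 16: 1078375-1078614, stood at 0.432 in overexpressing and 0.222 in control library 2, and the row in LOC105371042, chromosome 16: 1131593-1131729, at 0.672 in overexpressing and 0.421 in control library 3.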

How the data were processed

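DNA methylation of 6 HepG2 libraries was analysed from the 3 deposited lists of called regions and the table of mapped reads. Coordinates are on hg38, per the submitters' processing notes. Aligner, caller and thresholds: not given in the sources used here. Per the file headers, the authors gave each region's mean methylation level in both libraries as a fraction, the count of its CpG sites, a signed difference score and an area score, which was not used. The table of reads gives deposited counts and percent values for each library. No reads per region are given, so the depth behind a level is unknown and no interval or coverage minimum was possible.

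Positions are 1-based. Of 391 region boundaries inside RefSeq promoter windows, 391 fell on a C or G of a CpG. The deposited site count exceeded the CpG dinucleotides in 88 of 113 regions wholly inside a window, and in 0 of 113 the CpG cytosines of both strands, so sites of both strands were counted and are called CpG cytosines here.

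Samples were grouped by their titles. Rows overlapping by 1 bp were merged, and where a pair had several rows in a merged region its level is their mean weighted by CpG cytosines. A merged region is named by the span of all its rows, so the row of a single pair can be shorter. Genes came from the RefSeq table of GRCh38.p14, keeping 59003 of 59792 entries, those on the main chromosome sequences. A row counted for a gene within 1 kb. Counts and merging used Python 3.11.15 and pandas 2.3.3 and were tested on simulated regions. No test was run, because CACNA1H was chosen from these calls. The gene, the gene lists and the rules were chosen with earlier results of these data known. Named genes were CACNA1H, members of both gene lists with a row, genes at rows within 100 kb, and the 5 genes with the smallest Euclidean distance in the 6 counts of rows. The bins of control level were chosen after seeing the data. Alternatives were other windows, overlaps, weights, thresholds and leaving out each pair. The neighbourhood past the gene's end is not reported here.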

Additional observations from a re-analysis of the deposited data

How the results depend on the processing

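All 39 rows and the row added by the wider window were higher, so no alternative could turn the direction. Rows with a difference of at least 0.2 numbered 25, and their mean difference was 0.286. Leaving out 1 pair left 25 to 27 rows, a mean difference of 0.223 to 0.241 and the first rank among protein-coding genes each time. The gene was chosen by its rows, so the kept rank is no independent support. Of the 5 regions listed in all 3 pairs, 3 remained with a difference of at least 0.2, namely those starting at 1177335, 1184451 and 1193073. With a 50% reciprocal overlap 3 also remained, starting at 1159039, 1177335 and 1184451. Leaving out a pair, chosen after seeing the data, gave 5 to 9 regions listed in both others, the highest without pair 1.

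By listed regions per 10 kb of gene CACNA1H ranked 55, behind 54 genes with a median of 2 rows, at most 11, and a median length of 2.50 kb. By listed CpG cytosines it ranked 1. The gene body alone held 37 rows, the gene with 5 kb each side 40, and rows with at least 10 CpG cytosines numbered 31. The mean difference under these settings, with length weights or with equal weights, moved by less than the SD between pairs.

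No paired analysis was possible because no result comes from a test to which a replicate block could be added. The differences within pairs are given as a description, with a mean of 0.231 ± 0.0184 (SD, n = 3). The levels come from the same reads as the calls, and absence from a list does not show equal levels.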

Other observations

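Genes of calcium release and calcium signalling, from a list of 24 regulators of T-type channels and their partners, had listed regions in 7 cases, against 8.9% of all protein-coding genes. Of their 12 rows, 11 were higher and 1 was lower, where 81.1% to 82.1% of all listed regions were higher. Gene length was not accounted for in the share of genes with a row. NFATC2, a calcium-regulated transcription factor gene, was listed in all 3 pairs at chromosome 20: 51428510-51428644, with 18, 18 and 15 CpG cytosines in pairs 1, 2 and 3. Its level was 0.212, 0.257 and 0.151 in overexpressing libraries 1, 2 and 3, against 0.0313, 0.0451 and 0.0374 in control libraries 1, 2 and 3, and the groups did not overlap. The region was listed for a difference in each pair, and 85.9% of all distinct regions listed in 2 or 3 pairs were separated in this direction. That share is over regions of either direction, not over gains alone.

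ITPR3, an IP3 receptor gene of calcium release from the endoplasmic reticulum, was also listed in all 3 pairs from chromosome 6: 33634390. Its level was 0.475 and 0.530 in overexpressing libraries 1 and 2, against 0.0931 and 0.1004 in control libraries 1 and 2, over 12 CpG cytosines. Pair 3 listed a longer row with 18 CpG cytosines, at 0.472 in the overexpressing and 0.359 in the control library. RYR1, a calcium release channel gene, went in opposite directions, at 0.209 in overexpressing and 0.415 in control library 1 and at 0.406 and 0.245 in overexpressing and control library 3. CAMK2G, ITPR2, RYR3 and NFATC1 were listed once each, all higher, by 0.213 to 0.516.

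Of the 391 boundaries inside promoter windows, 186 (47.6%) lay on the CpG of a CCGG motif, the MspI site. Of the 6666 CpG dinucleotides in the windows that hold a boundary, 13.6% were in such a motif. RRBS reads fragments cut at this motif, so these shares are not independent of the assay. A boundary was counted in each list that held it, whereas the dinucleotides were counted per window, read or not. No test was made of this difference.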
